A study of Mus musculus with 4 samples.

Results

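The genes described here encode the PI3K, AKT, mTORC1 and FOXO signalling pathway, taken by symbol from a list of 41 genes. Of these, 38 had a row among the 28141 genes of the deposited expression table, while Foxo1, Sesn3 and Prkab1 had none and were not analysed here. All 38 passed the filter on low values and entered the test with 15527 genes in all. The study measured polyadenylated RNA of leukaemia cells, which the labels call LSCs, from the bone marrow of C57BL/6 mice, in a series whose title concerns chronic myeloid leukaemia. The YBX1cKO group, with a conditional knockout of the Y-box RNA- and DNA-binding protein gene Ybx1, held 2 libraries, and the WT group held 2 libraries. The driver of the conditional deletion, the agent that induced the leukaemia, the age of the mice and whether libraries came from single or pooled animals are not stated in the labels. Nothing in the labels says that replicates were separate animals, so the p-values rest on the spread among these 4 libraries alone, and that spread may be technical.

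PI3K is a lipid kinase that growth factor, cytokine and chemokine receptors activate, and its lipid product brings the kinases PDK1 and AKT together at the membrane. AKT phosphorylates and restrains the FOXO transcription factors, the GSK3 kinases and the TSC complex, and the last of these holds back RHEB, the small GTPase that activates mTORC1. mTORC1 is a kinase complex at the lysosome that promotes protein synthesis when amino acids, sensed through the RAG GTPases, and growth signals are both present, while sestrins, DDIT4 and the energy sensor AMPK inhibit it. In blood stem cells the FOXO factors are known for maintaining quiescence, and in chronic myeloid leukaemia BCR-ABL is known to activate PI3K and AKT. Transcript levels do not report the phosphorylation on which most of this signalling runs.

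All levels below are log2 values, for which each deposited log-scale score was multiplied by 0.693, a factor inferred from replicate noise. If the scores were plain log2 values, each log2 fold change would be 1.44 times as large and the p-values the same. Plain folds, back-transformed levels, and the sums and shares made from them below would also differ, and the shares were not computed on that reading. So would the sets of genes past a limit on the log2 level or log2 fold change. Log2 fold changes are YBX1cKO minus WT, and a gene was called when its adjusted p in limma, a linear model with moderated variances, was under 0.05. The back-transformed levels summed to between 11074317 and 12134026 per library, but these are not counts, and depth is unknown. Ybx1 itself had a log2 level of 8.19 and 8.13 in YBX1cKO libraries, against 9.31 and 9.41 in WT libraries (log2 fold change -1.20, SE 0.08, limma adjusted p = 1.1e-11), and the deleted exons were not given. The pan-leukocyte gene Ptprc was at 12.13 and 12.11 in YBX1cKO, against 12.07 and 12.11 in WT. Of the listed stem and progenitor markers, Kit, Cd34, Flt3 and Meis1 were not analysed here for lack of a row, and Ly6a, Mecom and Gata2 were lower in YBX1cKO, with a summed back-transformed level of 3716 and 3835, against 5419 and 5540 in WT. Of 11 mature neutrophil markers 4 had a row and all 4 were higher in YBX1cKO (summed level 13540 and 13650, against 3897 and 4140 in WT), and of 7 monocyte and macrophage markers 6 were tested and 5 were higher (summed level of the 7, 128100 and 128900, against 74240 and 74910 in WT). Most of that second difference was Lyz2, at 59780 and 59230 in YBX1cKO, against 12530 and 12540 in WT. Cd14, Cd68 and Ccr2 rose 2.25-fold, 1.71-fold and 1.55-fold. Adgre1 rose only 1.065-fold, and Csf1r was not called, with overlapping groups. Megakaryocyte markers, 4 of 5 with a row, summed to 8007 and 8271 in YBX1cKO, against 4881 and 5051 in WT. They did not all move the same way: Ppbp (4.29-fold) and Pf4 (log2 fold change 0.677) were higher in YBX1cKO. Itga2b was lower (log2 fold change -0.212), and Gp9 was not called, with overlapping groups. Of 8 T and NK cell markers Gzmb alone had a row, at a level of 310.7 and 375.5 in YBX1cKO, against 938.9 and 910.7 in WT. The part that these shifts in marker genes play in the values below was not tested, and in bulk RNA a change in the number of cells of a type and a change in RNA per cell cannot be told apart.

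Loss of Ybx1 went with changes in single components of the pathway in both directions. The largest rises were those of Gsk3b, Foxo3, Akt1s1, Lamtor2, Flcn and Rheb, all between 1.48-fold and 1.80-fold, and the largest fall was that of Akt2, which was 1.77-fold lower in YBX1cKO. Of the 38 members, 13 were higher and 6 lower in YBX1cKO, and 19 did not pass. The called share was 50.0%, against 37.4% of all tested genes (19.5% higher and 17.8% lower). Because most members are well expressed, the share was also set beside genes at a mean log2 level of at least 5, a limit chosen after the data were seen, where 19 of 36 members (52.8%) and 53.9% of all genes were called. In that range 28.4% of all genes were higher and 25.6% lower, against 13 and 6 of the 36 members. The pathway as a whole was therefore called about as often as other genes of such levels. Its median log2 fold change was 0.12, against 0.003 for all tested genes. With each library shifted to an equal median, 18 members were called higher and 3 lower, and of all tested genes 3626 were called higher and 2358 lower. That shift also moved the median log2 fold change of all tested genes from 0.003 to 0.065.

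**Figure D1:**
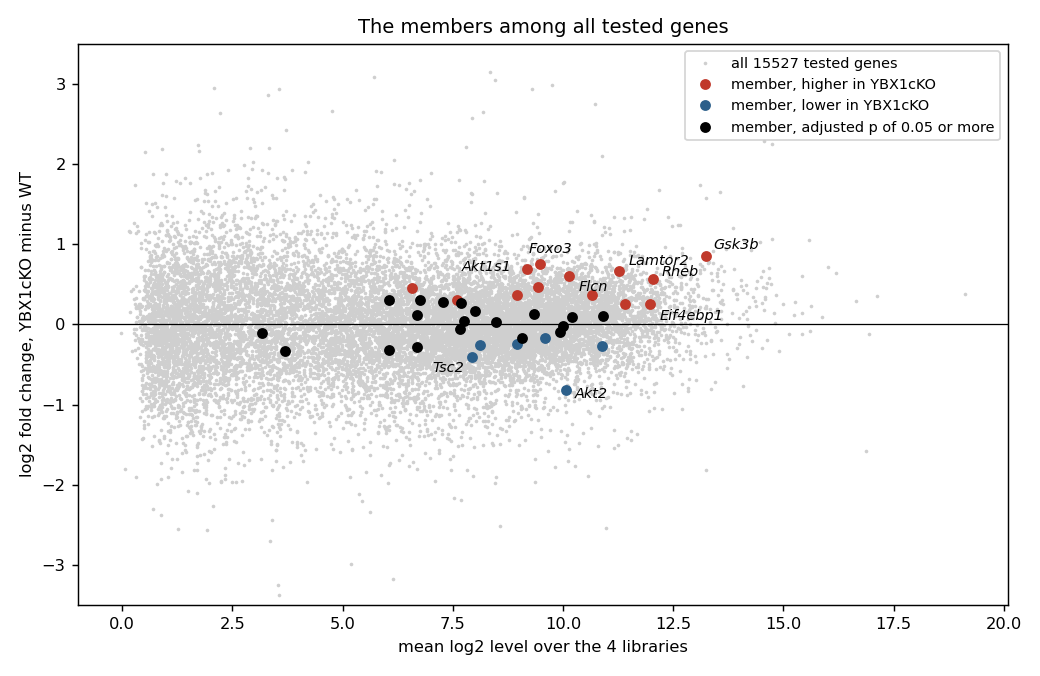
Log2 fold change (YBX1cKO minus WT, vertical axis) against mean log2 level over the 4 libraries (horizontal axis) for all 15527 tested genes in grey and the 38 members in red (higher in YBX1cKO), blue (lower) and black (adjusted p of 0.05 or more). The members lie inside the cloud of all genes, with Gsk3b at 0.85 and Akt2 at -0.82 as the extremes.

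The libraries of the groups did not overlap for 31 of 38 members (81.6%), 21 higher and 10 lower in YBX1cKO, where this was so for 65.1% of all tested genes (32.7% higher and 32.4% lower). All 31 lay at a mean log2 level of at least 5. The non-overlap share of all genes in that range was not computed, so 81.6% and 65.1% are not matched for level. All 19 called members were among the 31. Of the 19, 10 changed by 0.4 or more on the log2 scale, 8 of them higher and 2 lower in YBX1cKO, where 22.8% of all tested genes were called with changes of that size. The other 9 had smaller changes, 5 higher and 4 lower. Leaving out each library in turn changed the direction of no called member. The log2 fold change ranged from 0.803 to 0.896 for Gsk3b and from -0.914 to -0.735 for Akt2. Those fits leave a lone library in a group. They gave Gsk3b, Akt2 and Rheb smaller adjusted p than the fit to all libraries, on fewer data. A call kept in them therefore says little about a gene's own replicate spread. Pik3r2, Mlst8, Rragc, Stk11 and Prkaa1 did not keep their calls in all 4 fits and are marked as such below. When the prior variance of limma did not follow the expression level, 7 of the 19 stayed called: Gsk3b, Foxo3, Akt1s1, Lamtor2, Flcn, Rheb and Akt2.

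**Figure D2:**
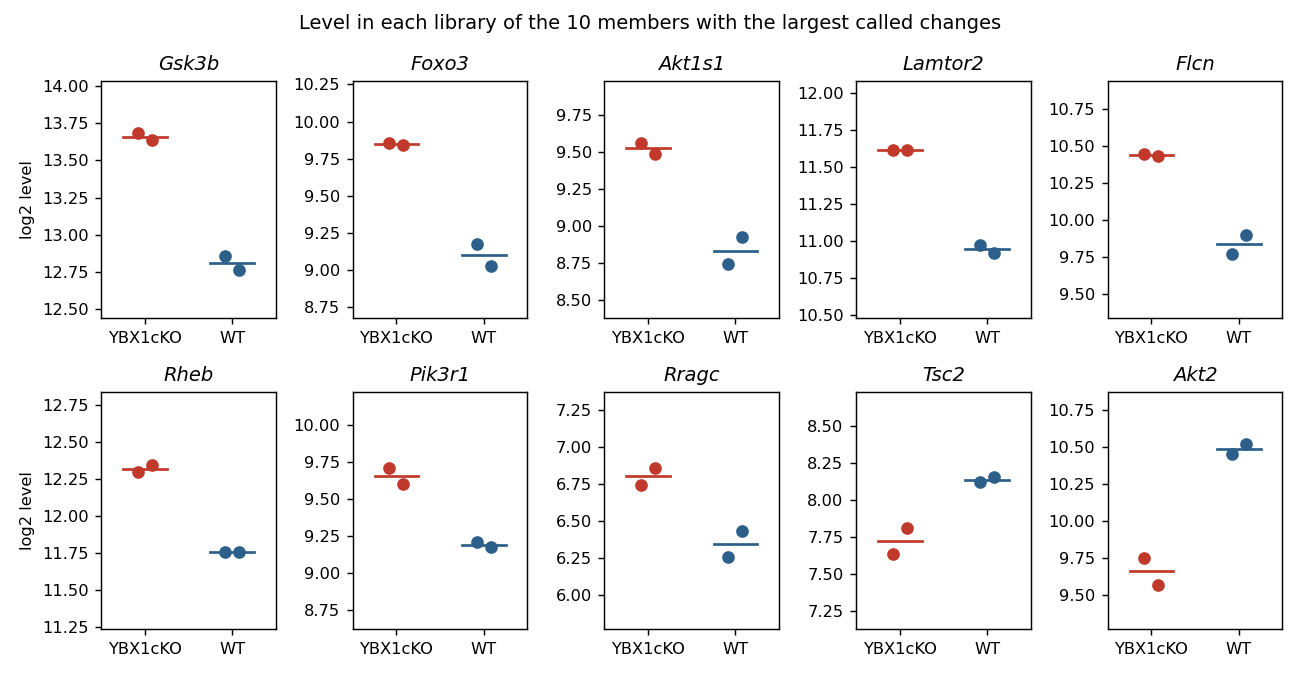
Log2 level in each library (points) and group mean (line) of the 10 called members that changed by 0.4 or more, YBX1cKO on the left of each panel and WT on the right, every vertical axis spanning the same range. In each panel both YBX1cKO points lie on 1 side of both WT points, above them for 8 genes and below them for Tsc2 and Akt2.

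Promoter sequence was examined because the Y-box, the DNA element for which the YBX1 protein family is named, contains an inverted CCAAT sequence, and because FOXO factors and lysosomal E-box factors have known recognition sequences. RefSeq windows on GRCm38.p6, from 250 bases before to 50 after a gene's start, were found for 34 of the 38 members. ATTGG, which is CCAAT read on the other strand and was searched on both, lay in at least 1 window of 17 of 34 members (50.0%), and of 41.1% of all 27025 genes with such windows. The longer Y-box CTGATTGG (CCAATCAG on the other strand), which contains ATTGG, lay in windows of 3 members (8.82%), Mtor, Pdpk1 and Sesn2, and 4.70% of all genes. Sesn2 and Mtor held 2 such matches each, and of the 3 genes Sesn2 was called while Mtor and Pdpk1 were not. The FOXO sequence GTAAACA, searched also on the other strand as TGTTTAC, was found for 4 members (11.8%), Akt1, Pik3cg, Sesn1 and Stk11, and 4.05% of all genes. The E-box CACGTG, which reads the same on both strands, was found for Rheb, Rragc and Lamtor1, or 8.82% of members, and 8.09% of all genes, and its longer form GTCACGTG (CACGTGAC) for Rheb alone, or 2.94% of members, and 2.55% of all genes. Lamtor1 was not called, nor were Mtor, Pdpk1 and Ddit4, which each held more than 1 match to ATTGG. All these matches describe the letters and do not show binding. The sequences printed here are the 250 bases before the start of 4 members: Gsk3b, the member with the largest rise, with the matches to ATTGG on either strand in capitals; Rheb and Rragc, which both rose, with the E-box in capitals (GTCACGTG in Rheb); and Sesn2, which fell, with CTGATTGG in capitals. They lie at chr16:38088751-38089000 on the plus strand for Gsk3b, chr5:24842362-24842611 on the minus strand for Rheb, chr4:123917183-123917432 on the plus strand for Rragc and chr4:132510457-132510706 on the minus strand for Sesn2, and each is written 5′ to 3′ in the direction of the gene.
Gsk3b: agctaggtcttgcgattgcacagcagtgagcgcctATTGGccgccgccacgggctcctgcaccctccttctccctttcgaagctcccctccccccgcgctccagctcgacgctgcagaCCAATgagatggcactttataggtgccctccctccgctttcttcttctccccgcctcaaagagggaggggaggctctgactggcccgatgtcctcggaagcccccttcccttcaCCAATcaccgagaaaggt
Rheb: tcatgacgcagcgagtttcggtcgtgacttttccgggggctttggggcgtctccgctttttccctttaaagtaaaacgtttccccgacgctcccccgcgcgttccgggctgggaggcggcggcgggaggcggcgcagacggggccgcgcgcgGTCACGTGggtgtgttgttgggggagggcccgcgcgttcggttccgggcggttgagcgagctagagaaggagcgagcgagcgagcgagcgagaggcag
Rragc: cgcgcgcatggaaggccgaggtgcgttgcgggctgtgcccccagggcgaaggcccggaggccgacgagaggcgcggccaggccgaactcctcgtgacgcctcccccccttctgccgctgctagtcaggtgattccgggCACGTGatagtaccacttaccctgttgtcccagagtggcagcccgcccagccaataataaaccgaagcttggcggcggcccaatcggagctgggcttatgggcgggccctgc
Sesn2: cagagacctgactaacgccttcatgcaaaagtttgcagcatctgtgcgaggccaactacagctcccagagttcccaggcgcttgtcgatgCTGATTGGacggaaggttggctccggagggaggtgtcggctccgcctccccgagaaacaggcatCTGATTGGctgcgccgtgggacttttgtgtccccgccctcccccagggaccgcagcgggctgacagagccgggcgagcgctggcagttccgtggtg

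Among the class I PI3K genes, the catalytic subunit gene Pik3cg and the regulatory subunit gene Pik3r1 were higher in YBX1cKO and the regulatory subunit gene Pik3r2 was lower. Pik3cg, whose product responds to G protein-coupled receptors and is known for its role in white blood cells, had a log2 level of 11.52 and 11.54 in YBX1cKO, against 11.27 and 11.27 in WT (log2 fold change 0.26, SE 0.04, limma adjusted p = 4.0e-06). This rise was small, though larger than the differences between replicates, and quantile normalization lowered it to 0.15 (adjusted p = 1.5e-03). Pik3r1, which encodes the most widely used regulatory subunits, had 9.71 and 9.60 in YBX1cKO, against 9.21 and 9.17 in WT, a 1.38-fold rise (log2 fold change 0.46, SE 0.07, limma adjusted p = 3.6e-06). It lies on chromosome 13 from 101680563 to 101768217 on GRCm38. Pik3r2, a close relative of Pik3r1, had a log2 fold change of -0.17 (SE 0.07, limma adjusted p = 0.042), a call that leaving out YBX1cKO replicate 2 (adjusted p = 0.14) or WT replicate 2 (0.47, log2 fold change -0.10) ended. The median shift (adjusted p = 0.21, log2 fold change -0.11) and no filter on low values (0.22) ended it too.

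The other 4 PI3K genes did not pass. Of all genes at a mean log2 level of at least 5, where the PI3K genes lie, 53.9% were called. The log2 fold change was 0.30 (SE 0.20) for Pik3ca and -0.32 (SE 0.21) for Pik3cb, the widely expressed catalytic subunits. It was -0.18 (SE 0.08) for Pik3cd, the second leukocyte-type catalytic subunit, which ranged from -0.32 without YBX1cKO replicate 1 (adjusted p = 1.2e-03) to -0.03 without YBX1cKO replicate 2 (0.81), and 0.30 (SE 0.16) for Pik3r5, a partner of the gamma subunit.

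Compared per kilobase of exon, so that genes of different length can be set side by side, Pik3cg made up most of the catalytic subunit level in every library. Its share of the 4 catalytic subunits was 76.5% and 80.1% in YBX1cKO, against 73.4% and 72.8% in WT. Pik3cd followed with 19.5% and 16.5% in YBX1cKO, against 22.3% and 22.9% in WT, while Pik3ca and Pik3cb each stayed under 3% of the total. Among the 3 regulatory subunits listed, Pik3r1 held 29.4% and 28.6% in YBX1cKO, against 22.3% and 20.4% in WT, and Pik3r2 held 63.5% and 62.9% in YBX1cKO, against 70.6% and 73.8% in WT. The Pik3r1 and Pik3r2 shares did not overlap between groups. Lengths are unions of all annotated exons, so a gene with long, little-used exons appears lower than it is, and with 2 libraries against 2 an exact permutation test of any share cannot give p below 0.333.

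Of the kinases PDK1 and AKT, Akt2 was much lower in YBX1cKO, while Pdpk1 and Akt1 overlapped between groups. Akt2 encodes the AKT isoform best known for glucose handling and lies on chromosome 7 from 27591552 to 27640826. Its log2 level was 9.75 and 9.57 in YBX1cKO, against 10.45 and 10.52 in WT (log2 fold change -0.82, SE 0.06, limma adjusted p = 4.9e-11). That gap between the groups was larger than the differences within them. Akt1 had 7.56 and 7.98 in YBX1cKO, against 7.71 and 7.74 in WT, so that its YBX1cKO replicates lay on opposite sides of WT (log2 fold change 0.05, SE 0.13). Pdpk1, which encodes PDK1, had a log2 fold change of 0.02 (SE 0.09).

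Set beside Akt1, Akt2 also held a smaller share in YBX1cKO. Per kilobase, Akt2 made up 72.3% and 63.4% of the summed Akt1 and Akt2 level in YBX1cKO, against 79.4% and 79.8% in WT. The sum of both genes per kilobase was 167 and 168 in YBX1cKO, against 247 and 258 in WT. The groups did not overlap in either measure, and the YBX1cKO libraries differed more in the share than the WT libraries.

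**Figure D3:**
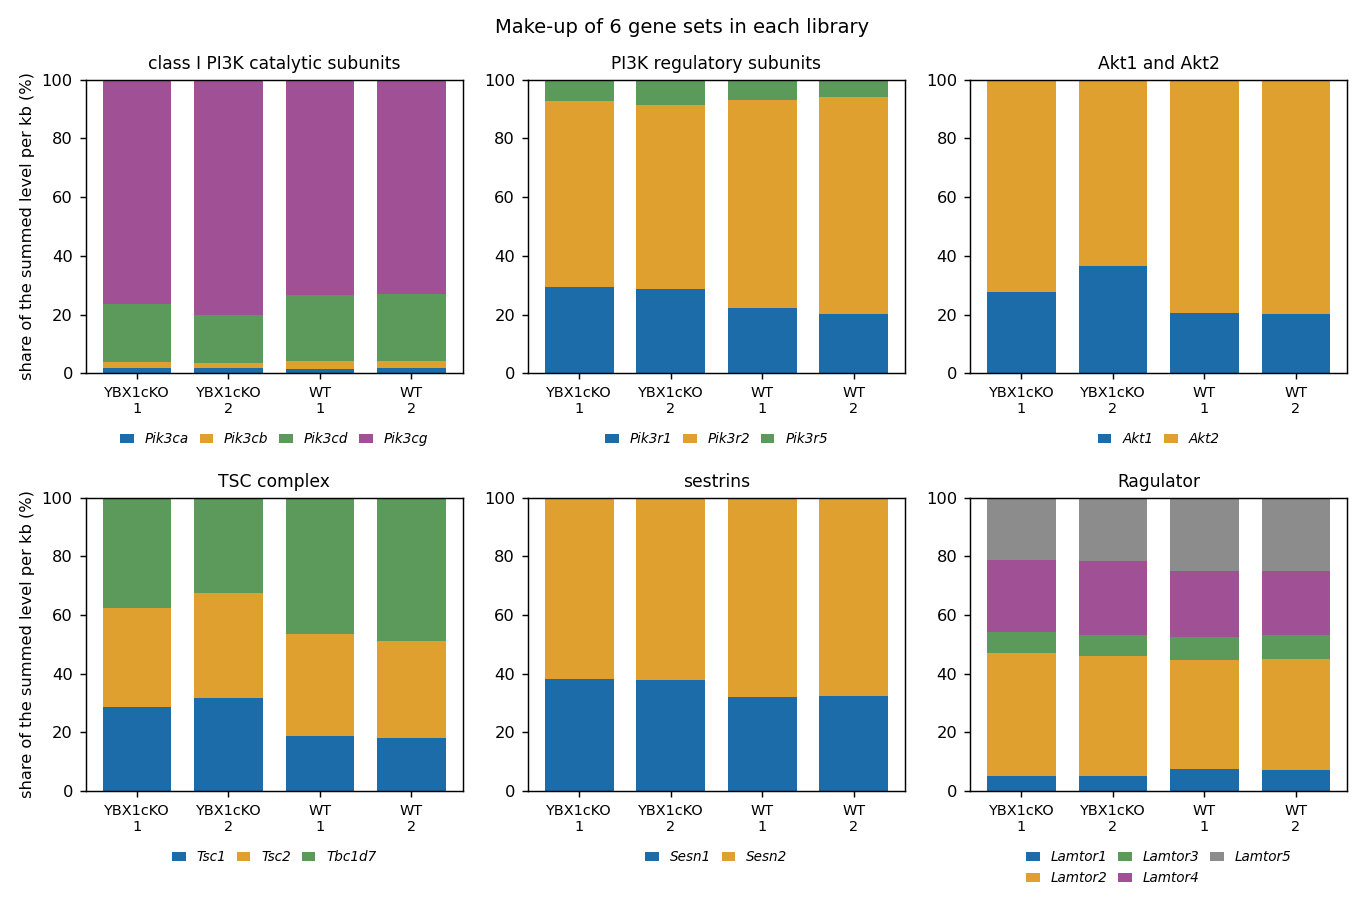
Share (%) of the summed back-transformed level per kilobase of exon held by each gene of 6 sets, with a bar for each library, the 2 YBX1cKO libraries on the left and the 2 WT libraries on the right of each panel. Pik3cg is the largest catalytic subunit share throughout (72.8% to 80.1%), and Akt2 holds 72.3% and 63.4% of the Akt1 and Akt2 sum in YBX1cKO bars, against 79.4% and 79.8% in WT bars.

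Among the AKT targets, Gsk3b and Foxo3 were higher in YBX1cKO. GSK3B is a kinase active in resting cells that marks beta-catenin, MYC and other proteins for degradation, and AKT inhibits it. The Gsk3b log2 level was 13.68 and 13.64 in YBX1cKO, against 12.86 and 12.76 in WT, a 1.80-fold rise (log2 fold change 0.85, SE 0.03, limma adjusted p = 2.5e-17), and both YBX1cKO libraries were far above both WT libraries. Quantile normalization lowered the Gsk3b log2 fold change to 0.61 (adjusted p = 1.3e-11). Gsk3b lies on chromosome 16 from 38089001 to 38246084, and its promoter printed above held 3 matches to ATTGG, counting both strands. Gsk3a, its paralog, had 3.96 and 3.11 in YBX1cKO, against 3.66 and 4.08 in WT, with overlapping groups (log2 fold change -0.33, SE 0.39). Per kilobase Gsk3b held more than 99% of the summed Gsk3a and Gsk3b level in each library. Gsk3a shares 820 bases of exon with 9130221H12Rik on the opposite strand, and whether the counting used strand was not given.

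FOXO3 is the FOXO factor best known for keeping blood stem cells quiescent, and AKT keeps it out of the nucleus. Foxo3, on chromosome 10 from 42181841 to 42276755, had a log2 level of 9.85 and 9.84 in YBX1cKO, against 9.17 and 9.02 in WT, a 1.68-fold rise (log2 fold change 0.75, SE 0.07, limma adjusted p = 1.8e-09). Both YBX1cKO libraries were nearly equal, and the WT libraries both lay below them. Foxo4 was low, with 2.70 and 3.53 in YBX1cKO, against 3.13 and 3.30 in WT, and its groups overlapped. Of the summed Foxo3 and Foxo4 level per kilobase, Foxo3 held 98.5% and 97.3% in YBX1cKO, against 96.8% and 96.0% in WT, while Foxo1 was not analysed here.

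In the TSC and RHEB step, Rheb was higher and Tsc2 lower in YBX1cKO. RHEB is the GTPase that switches mTORC1 on. Rheb, on chromosome 5 from 24802823 to 24842624, had a log2 level of 12.30 and 12.34 in YBX1cKO, against 11.76 and 11.76 in WT, a 1.48-fold rise (log2 fold change 0.56, SE 0.03, limma adjusted p = 6.6e-13). With quantile normalization the Rheb log2 fold change was 0.455 (adjusted p = 1.0e-09). TSC2 is the subunit of the TSC complex that inactivates RHEB. Tsc2 had 7.63 and 7.81 in YBX1cKO, against 8.12 and 8.15 in WT (log2 fold change -0.41, SE 0.11, limma adjusted p = 3.3e-03). Its 2 groups did not overlap, although the YBX1cKO libraries differed more than the WT libraries. Tsc2 shares 693 bases of exon with Pkd1 on the opposite strand, on chromosome 17 from 24595816 to 24632630, and whether the counting used strand was not given. Tsc1, which stabilises the complex, had a log2 fold change of 0.27 (SE 0.12, limma adjusted p = 0.083) and depended on the library left out. It was 0.39 without YBX1cKO replicate 1 (adjusted p = 0.013) and 0.15 without YBX1cKO replicate 2 (0.44), and it passed under the median shift (0.027). With Tbc1d7, the third subunit, included, the level of the TSC complex genes per kilobase summed to 61.5 and 65.8 in YBX1cKO, against 83.1 and 90.2 in WT.

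Among the genes of the mTOR complexes 2 of 5 were called, against 37.4% of all tested genes. At a mean log2 level of at least 5, where these genes lie, 53.9% of all genes were called. Akt1s1 encodes PRAS40, an mTORC1 component that inhibits the complex until AKT phosphorylates it. It had a log2 level of 9.56 and 9.49 in YBX1cKO, against 8.74 and 8.93 in WT, a 1.61-fold rise (log2 fold change 0.69, SE 0.08, limma adjusted p = 5.2e-08). Its groups lay clearly apart, with the wider spread in WT. Akt1s1 lies on chromosome 7 from 44848991 to 44855421 and shares 89 bases of exon with Tbc1d17 on the opposite strand. Mlst8, a subunit of both mTOR complexes, had a log2 fold change of -0.26 (SE 0.10, limma adjusted p = 0.048). That call held without YBX1cKO replicate 1 and ended when YBX1cKO replicate 2 (adjusted p = 0.28, log2 fold change -0.16), WT replicate 1 (0.17) or WT replicate 2 (0.16) was left out. It also ended with no filter on low values (adjusted p = 0.15), quantile normalization (0.15), the median shift (0.14) and a robust prior variance (0.052).

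The kinase gene Mtor and the scaffold genes Rptor and Rictor, which define mTORC1 and mTORC2, did not pass. Mtor had 7.04 and 6.46 in YBX1cKO, against 6.64 and 6.64 in WT, so its YBX1cKO libraries lay on either side of WT (log2 fold change 0.11, SE 0.18). The log2 fold change was 0.17 (SE 0.10) for Rptor and -0.28 (SE 0.17) for Rictor.

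Of the 4 genes for direct outputs of mTORC1, Eif4ebp1 was called, where 53.9% of all genes at a mean log2 level of at least 5 were called. Eif4ebp1 encodes 4E-BP1, which blocks cap-dependent translation until mTORC1 phosphorylates it. Its log2 level was 12.11 and 12.09 in YBX1cKO, against 11.83 and 11.87 in WT (log2 fold change 0.25, SE 0.03, limma adjusted p = 1.0e-06). Its relative Eif4ebp2 had a log2 fold change of 0.27 (SE 0.13, limma adjusted p = 0.11), and Eif4ebp1 held 98.6% and 98.5% of their summed level per kilobase in YBX1cKO, against 98.6% and 98.6% in WT. The S6 kinase genes Rps6kb1 and Rps6kb2, whose products phosphorylate ribosomal protein S6, had log2 fold changes of 0.11 (SE 0.04) and 0.13 (SE 0.07). Rps6kb1 lay at the threshold (limma adjusted p = 0.050), and passed with a stricter filter on low values (adjusted p = 0.046) and with the median shift (adjusted p = 1.9e-03), while quantile normalization gave a log2 fold change of 0.02 (adjusted p = 0.72). All 4 output genes had higher levels in both YBX1cKO libraries than in both WT libraries, which held for 32.7% of all tested genes, a share not matched for level. Under the median shift, which raised the count of genes called higher to 3626 of all tested, the other 3 passed too, while quantile normalization lowered the log2 fold change of Eif4ebp1 to 0.14 (adjusted p = 8.9e-04).

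In the nutrient arm at the lysosome, 4 of 6 members were called (66.7%), all higher in YBX1cKO, where 53.9% of all genes at a mean log2 level of at least 5 were called and 28.4% were called higher. Of the 4, Rragc did not keep its call when single libraries were left out. LAMTOR proteins form the Ragulator, which anchors the RAG GTPases to the lysosome, where they recruit mTORC1 when amino acids are present. Lamtor2, on chromosome 3 from 88549819 to 88553074, had a log2 level of 11.62 and 11.61 in YBX1cKO, against 10.97 and 10.92 in WT, a 1.59-fold rise (log2 fold change 0.67, SE 0.04, limma adjusted p = 8.2e-13). Lamtor3 had 10.85 and 10.85 in YBX1cKO, against 10.48 and 10.49 in WT (log2 fold change 0.37, SE 0.05, limma adjusted p = 3.4e-07). In both genes the replicates were almost equal and the groups far apart. Lamtor1 had 9.97 and 10.01 in YBX1cKO, against 10.04 and 9.97 in WT, with overlapping groups (log2 fold change -0.01, SE 0.06).

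Flcn encodes folliculin, which activates RAGC at the lysosome. On chromosome 11 from 59791408 to 59810016, it had a log2 level of 10.45 and 10.43 in YBX1cKO, against 9.78 and 9.90 in WT, a 1.52-fold rise (log2 fold change 0.60, SE 0.06, limma adjusted p = 2.9e-09). Both WT libraries lay below both YBX1cKO libraries. Rragc, the gene of RAGC, on chromosome 4 from 123917446 to 123936997, had 6.75 and 6.86 in YBX1cKO, against 6.26 and 6.43 in WT (log2 fold change 0.46, SE 0.17, limma adjusted p = 0.035). Its call held without YBX1cKO replicate 1 and ended when YBX1cKO replicate 2 (adjusted p = 0.11), WT replicate 1 (0.23) or WT replicate 2 (0.057) was left out, and with no filter on low values (0.079). Rraga, which encodes the partner GTPase RAGA, had a log2 fold change of -0.09 (SE 0.06).

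Including Lamtor4 and Lamtor5, which complete the Ragulator and are described with the other pathway genes, the 5 Ragulator genes summed per kilobase to 6146 and 6302 in YBX1cKO, against 4429 and 4239 in WT. Lamtor1 held 5.06% and 5.08% of that sum in YBX1cKO, against 7.37% and 7.34% in WT. Transcripts of 4 of these 5 subunits were called higher in YBX1cKO, as were 28.4% of all genes at a mean log2 level of at least 5. Those of Lamtor1 overlapped between groups. Lamtor4 and Lamtor5 come from a list chosen with earlier results of these data known.

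Among the stress inhibitors of mTORC1, Sesn2 was lower in YBX1cKO. Sestrin 2 restrains mTORC1 when leucine is scarce, and its gene responds to amino acid stress. Sesn2 had a log2 level of 10.75 and 10.76 in YBX1cKO, against 11.06 and 10.99 in WT (log2 fold change -0.27, SE 0.04, limma adjusted p = 1.8e-05), and the 2 YBX1cKO libraries lay together below both WT libraries. Its promoter printed above held 2 CTGATTGG matches, as did that of Mtor, which was not called. Sesn1, a p53-responsive relative, had a log2 fold change of 0.10 (SE 0.05, limma adjusted p = 0.16). Per kilobase Sesn2 held 61.9% and 62.1% of the Sesn1 and Sesn2 level in YBX1cKO, against 68.1% and 67.5% in WT. Ddit4, which acts on mTORC1 through the TSC complex under hypoxia and other stress, had 7.58 and 7.69 in YBX1cKO, against 7.73 and 7.66 in WT, with overlapping groups (log2 fold change -0.06, SE 0.12).

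LKB1 and AMPK, which hold back mTORC1 when energy is low, had all 3 of their analysed genes called, 2 of them with calls that single libraries decided. Of all genes at a mean log2 level of at least 5, where these 3 lie, 53.9% were called. Prkag1, the gene of a regulatory AMPK subunit that senses AMP, had 9.10 and 9.16 in YBX1cKO, against 8.75 and 8.78 in WT (log2 fold change 0.37, SE 0.08, limma adjusted p = 3.4e-04). It shares 950 bases of exon with B130046B21Rik on the opposite strand. Prkaa1, the catalytic subunit gene, had 8.83 and 8.84 in YBX1cKO, against 9.07 and 9.08 in WT (log2 fold change -0.24, SE 0.07, limma adjusted p = 0.011). Leaving out WT replicate 1 or WT replicate 2 ended that call (adjusted p = 0.061 and 0.075), as did the median shift (0.058). Stk11, which encodes the AMPK-activating kinase LKB1, had 7.74 and 7.75 in YBX1cKO, against 7.46 and 7.42 in WT (log2 fold change 0.30, SE 0.12, limma adjusted p = 0.046). Without any 1 of the libraries that call was lost, with adjusted p = 0.075 without YBX1cKO replicate 1, 0.091 without YBX1cKO replicate 2, 0.13 without WT replicate 1 and 0.20 without WT replicate 2, and it was lost with no filter on low values (0.057).

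**Figure D4:**
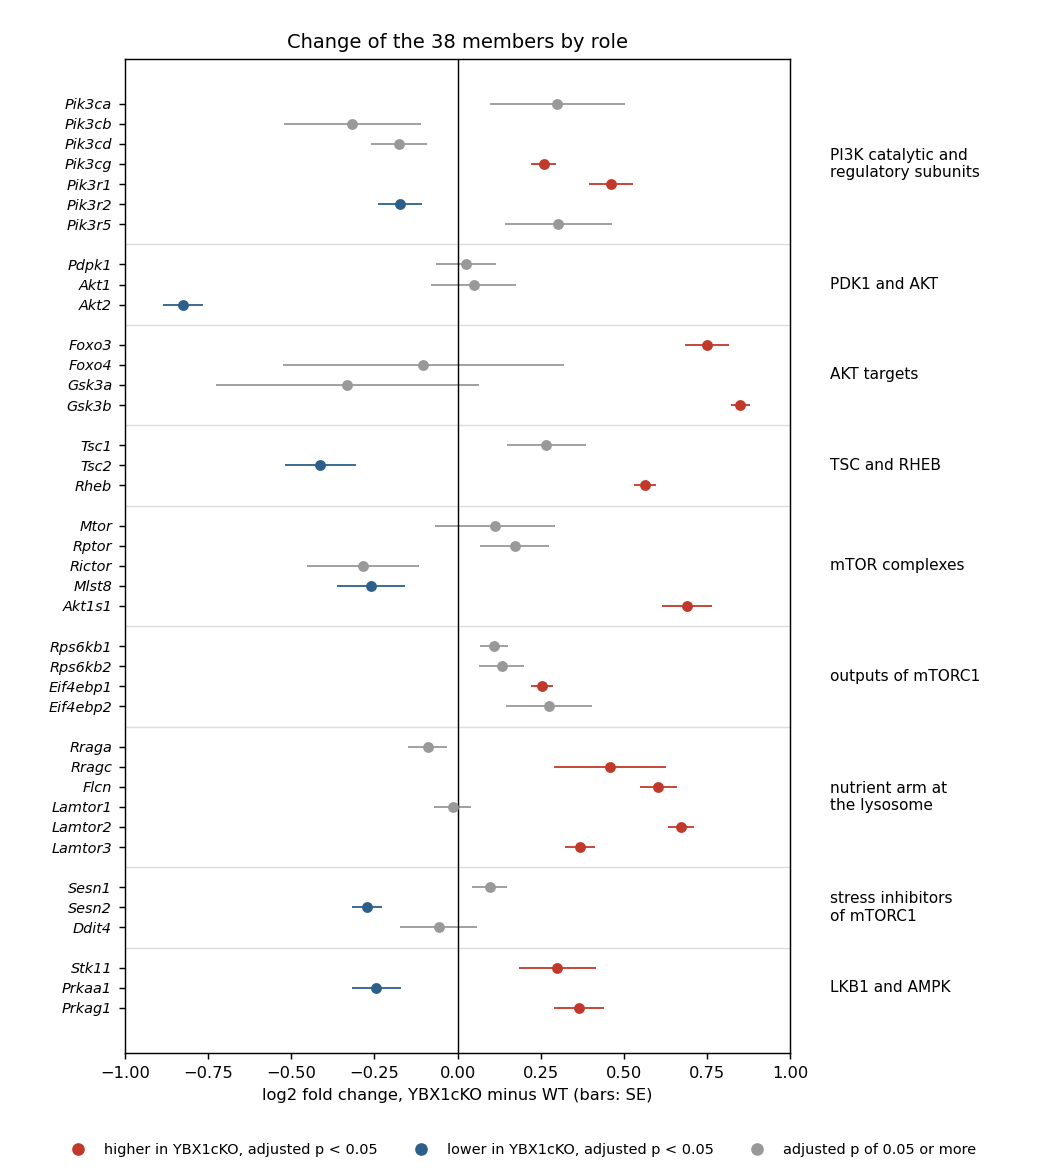
Log2 fold change (YBX1cKO minus WT) with its SE for the 38 members, grouped by role from PI3K at the top to LKB1 and AMPK at the bottom, in red (called higher), blue (called lower) and grey (adjusted p of 0.05 or more). Changes lie between -0.82 for Akt2 and 0.85 for Gsk3b, and the nutrient arm has 4 called rises and no called fall.

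The 19 members that did not pass had log2 fold changes between -0.33 and 0.30, with SEs between 0.04 and 0.42, and the groups overlapped for 7 of them. Exons of 12 of the 38 members overlap exons of a gene on the opposite strand, 7 of them called: Akt1s1, Tsc2, Rragc, Prkag1, Stk11, Pik3r2 and Mlst8.

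Further genes of the pathway were taken from a list of 75 that are not members, of which 69 had a row and 65 were tested. Of these, 12 were higher and 15 lower in YBX1cKO (41.5%, against the 37.4% of all tested genes), with a median log2 fold change of 0.001. At a mean log2 level of at least 5 it was 24 of 57 (42.1%), below the 53.9% of all genes in that range. The lipid phosphatase genes Inpp5d and Inpp4b, whose products act on PI3K lipids, were lower in YBX1cKO, by log2 fold changes of -0.28 (SE 0.06) and -0.35 (SE 0.06). Inppl1, another such gene of the list, did not pass (log2 fold change 0.11, SE 0.20). Among the 8 largest called changes, the Ragulator gene Lamtor4 rose by 0.69 on the log2 scale (SE 0.05), and Lamtor5, outside those 8, rose by 0.30 (SE 0.06). Eif4b, a translation initiation factor that S6 kinase phosphorylates, had a log2 level of 8.90 and 8.98 in YBX1cKO, against 9.72 and 9.70 in WT (log2 fold change -0.77, SE 0.07, limma adjusted p = 1.3e-09). Tbc1d7, the third subunit of the TSC complex, fell by 0.89 (SE 0.15), and Pik3r3, another PI3K regulatory subunit, by 1.05 (SE 0.24).

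Of the remaining 4, Fnip2, a partner of folliculin, rose by 0.66 (SE 0.17), but by 0.43 without WT replicate 2 (adjusted p = 0.091), and Castor1, an arginine sensor, by 0.95 (SE 0.32, adjusted p = 0.19 without WT replicate 1). The adaptor genes Grb10 and Gab1 had the largest log2 fold changes, -1.68 (SE 0.48) and -1.32 (SE 0.43), at low levels. Grb10 was at 1.11 and 2.06 in YBX1cKO, against 3.63 and 2.88 in WT, and its call did not hold when YBX1cKO replicate 1 (adjusted p = 0.056) or WT replicate 1 (0.15) was left out. Gab1 likewise lost its call when YBX1cKO replicate 1 (adjusted p = 0.21, log2 fold change -0.71) or WT replicate 1 (0.10) was left out. With no filter on low values none of these 4 passed, with adjusted p = 0.10 for Fnip2, 0.10 for Castor1, 0.17 for Grb10 and 0.23 for Gab1.

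Genes described as FOXO targets in mammalian cells form a further list, which holds no member. It was chosen with earlier results of these data known, and it shares Pik3ip1 and Insr with the list of other pathway genes. Of 32 listed, 25 had a row and 23 were tested. Of those, 11 were higher and 4 lower in YBX1cKO (65.2%, against 37.4% of all tested genes), and at a mean log2 level of at least 5 it was 14 of 22 (63.6%, against 53.9%). The median log2 fold change was 0.21, against 0.003. Map1lc3b, an autophagosome gene, had a log2 level of 14.43 and 14.47 in YBX1cKO, against 13.27 and 13.24 in WT, a 2.29-fold rise (log2 fold change 1.20, SE 0.02, limma adjusted p = 2.7e-22). Quantile normalization lowered that log2 fold change to 0.90 (adjusted p = 6.3e-16). Cdkn1b, the cell cycle inhibitor p27, had 7.47 and 7.27 in YBX1cKO, against 6.48 and 6.48 in WT (log2 fold change 0.89, SE 0.15, limma adjusted p = 3.1e-05). Tsc22d3, a glucocorticoid-induced gene, and Gabarapl1, another autophagosome gene, rose by 0.70 (SE 0.12) and 0.63 (SE 0.04).

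Other genes of the same list were lower in YBX1cKO or did not pass. Rbl2, a retinoblastoma family gene, had 6.88 and 6.79 in YBX1cKO, against 7.75 and 7.84 in WT (log2 fold change -0.96, SE 0.13, limma adjusted p = 1.5e-06). Gadd45b, a stress gene, fell by 0.87 (SE 0.19), and Plk2 by 0.66 (SE 0.21), although the Plk2 call ended when YBX1cKO replicate 2 (adjusted p = 0.067), WT replicate 1 (0.077) or WT replicate 2 (0.083) was left out, and with no filter on low values (0.067). Bcl6, a repressor gene at a low level, fell by 1.40 (SE 0.51), a call lost without YBX1cKO replicate 2 (adjusted p = 0.15) or WT replicate 2 (adjusted p = 0.37, log2 fold change -0.96), and with no filter on low values (0.24). The pro-apoptotic targets Bcl2l11 and Bbc3 had log2 fold changes of 0.15 (SE 0.12) and 0.15 (SE 0.16), and the superoxide dismutase gene Sod2 of 0.01 (SE 0.04), and these 3 did not pass. The summed levels of the neutrophil and of the monocyte and macrophage markers given above were also higher in YBX1cKO, the second sum mostly through Lyz2. The part of these markers in the FOXO target values was not tested.

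**Figure D5:**
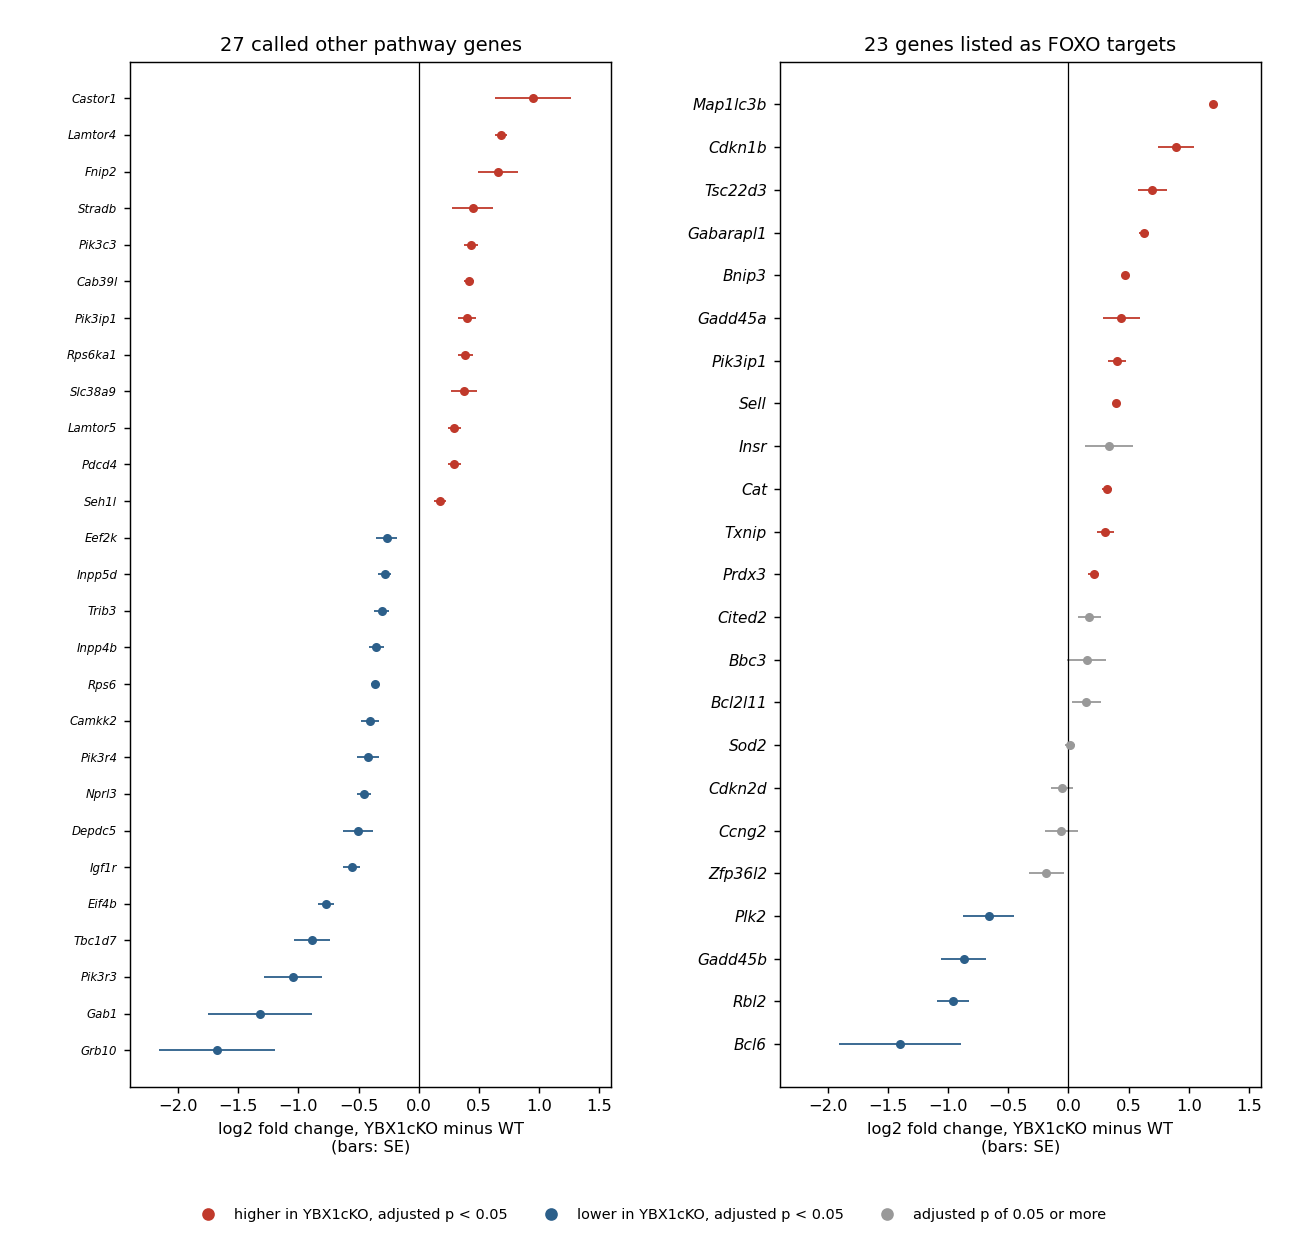
Log2 fold change (YBX1cKO minus WT) with its SE for the 27 called genes among the 65 other genes of the pathway (left) and 23 genes listed as FOXO targets (right), sorted by size, in red (called higher), blue (called lower) and grey (adjusted p of 0.05 or more). The left panel holds 12 called rises and 15 called falls, and the right panel 11 called rises and 4 called falls, from Map1lc3b at 1.20 to Bcl6 at -1.40.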

How the data were processed

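RNA was extracted with Trizol and selected with oligo dT beads, per the labels' protocols, and CASAVA, HISAT2 2.1.0, featureCounts and DESeq2 are named on GRCm38, with no role or order, per the submitters' processing notes. The deposited values are log-scale scores whose base and transformation are not given in the sources used here, from -3.19 to 27.9, for 28141 symbols in 4 libraries, matched to samples by title. Their scale was inferred: read as log2 levels multiplied by 1.44, the median ratio of the observed replicate SD to Poisson noise was 1.31 in YBX1cKO and 1.10 in WT, against 5.90 and 4.83 for plain log2. All scores were multiplied by 0.693. No counts are held, so depth and counting error are unknown.

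Genes scoring 1 or more in 2 or more libraries entered the test in limma 3.58.1 under R 4.3.3 (trend on the level, two-sided, Benjamini-Hochberg over 15527 genes, threshold 0.05), after a check on simulated data. Levels per kilobase use exon unions of GENCODE M21. Tables and plots used Python 3.11.15. Named members are those called with a change of 0.4 or more (log2), in full, the other called members and the members not called by their fold change, and of each further list up to 8 called genes with the largest changes. Inpp5d, Inpp4b, Inppl1, Pik3r6, Lamtor5, Bcl2l11, Bbc3 and Sod2 were added after their values were seen. A gene that the rule also names is not reported here. The members, lists and tests were chosen with earlier results of these data known.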

Additional observations from a re-analysis of the deposited data

How the results depend on the processing

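The count of called members (19) and those of the other pathway genes (27), the FOXO targets (15) and all tested genes (5803) stayed within 1.5 times under other filters, a robust prior variance, quantile normalization, the median shift and thresholds of 0.01 and 0.10. With 1 prior variance for genes of all levels, 7 members, 7 other pathway genes, 7 FOXO targets and 2267 genes in all were called. Leaving out each library in turn left a lone library, assumed to vary like the other group. Counts of called genes in those fits are therefore not used as a check on replicate spread. Quantile normalization called 13 members higher and 5 lower. Among named genes, no called gene changed direction. Genes that were not called changed sign under the median shift (Ddit4, 0.005, and Lamtor1, 0.048) and when libraries were left out, where the log2 fold change ranged from -0.062 to 0.11 for Pdpk1, -0.16 to 0.26 for Akt1, -0.18 to 0.40 for Mtor, -0.52 to 0.31 for Foxo4, -0.75 to 0.093 for Gsk3a and -0.049 to 0.02 for Lamtor1. Replicate numbers do not pair the libraries by any label. Differences between replicates 1 and 2 correlated by 0.013 between groups across genes, and with the replicate number as a block 20 members (14 higher, 6 lower), 27 other pathway genes, 15 FOXO targets and 6026 genes in all were called, with Rps6kb1 (adjusted p = 0.041) as the added member. The cause of these differences was not tested. Low genes such as Foxo4, Gsk3a, Grb10 and Bcl6 are the least certain.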
